A study of Homo sapiens with 12 samples.

Results

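The baseline state of drug-resistant SET-2 cells was read from 3 insR_DMSO libraries set beside 3 WT_DMSO libraries, 6 of the 12 libraries in the series, chosen by their labelled genotype and treatment. SET-2 is an established human acute myeloid leukemia cell line. WT cells carry unaltered LSD1. insR cells carry LSD1 with an arginine inserted between a leucine and an asparagine (Leu659_Asn660insArg), and the labels call them drug-resistant. All 6 samples received 0.1% (v/v) DMSO for 48 h and no LSD1 inhibitor. The remaining 6 libraries, the same lines with 250 nM of the LSD1 inhibitor GSK-LSD1 for 48 h, shared the fit and served to measure again what was seen without drug. The labels do not give how the insR cells were obtained or whether they are 1 clone, so the inserted arginine and any other difference between the lines cannot be told apart. They also do not say that the 3 samples of a group were grown apart, and the p-values then reflect the variation among these libraries, which may be technical.

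LSD1, the product of KDM1A, is a flavin-dependent enzyme that takes methyl groups off lysines of histone tails. It works in the CoREST complex together with histone deacetylases, and repressors such as GFI1 and GFI1B bring it to genes. In blood cell development it is known for silencing genes of competing and later stages. Leukemia lines kept long in culture often carry gains and losses of chromosome segments, and such segments can shift the transcripts of many neighbouring genes at once.

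The reference sequence around the insertion is shown because it defines the insR line. It is the coding strand of the KDM1A transcript with 852 codons (GENCODE 29, GRCh38, chromosome 1, exon 15 of 19), and the capitals mark codons 659 and 660, between which the labels place the arginine.
KDM1A: ggatttggcaacCTTAACaaggtggtgttg
Read counts per gene do not show the insertion. The level of KDM1A itself was 290.4, 238 and 266 CPM (reads of a gene relative to all reads in genes of its library, after scaling between libraries) in the 3 WT libraries and 109, 107 and 111 CPM in the 3 insR libraries. Every insR library lay below every WT library (log2 fold change -1.28, SE 0.08, edgeR adjusted p = 7.64e-12). The 30 tested genes around KDM1A had a median log2 fold change of 0.10, so its neighbours did not share the lower level.

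Sequencing gave 5562853 to 7438754 reads in genes per WT library and 5789614 to 10141155 per insR library. Reads that fell in no gene were 16.3% to 16.7% of the unique alignments in WT and 14.1%, 13.8% and 17.1% in insR replicates 1, 2 and 3. Markers of SET-2 were present in both lines: GATA1, the central regulator of red cell and platelet precursors, was at 70.7 ± 2.29 CPM (SD, n = 3) in WT and 74.9 ± 6.22 CPM in insR, and ITGA2B, a platelet integrin subunit, at 735 ± 45 and 712 ± 26.4 CPM. The progenitor marker CD34 and the myeloid marker CD33 were higher in insR, by 0.32 and 0.73 on the log2 scale.

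In all, 12864 genes passed the count filter and 3877 (30.1%) were called, that is, had an adjusted p under 0.05 in edgeR's quasi-likelihood test. insR was higher for 1866 genes (14.5%) and lower for 2011 (15.6%). A called change of at least 2-fold was seen for 1373 genes (10.7%), with 595 higher and 778 lower. For 5450 genes (42.4%) the 3 libraries of 1 line all lay above the 3 of the other. The median log2 fold change of all tested genes was 0.01.

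Long runs of neighbouring genes that differed together were separated first. Over 6 stretches of at least 31 tested genes, the running median of the log2 fold change over 31 neighbours stayed beyond 0.3 (gaps of up to 10 genes joined), lower in insR in 4 and higher in 2. These stretches, on chromosomes 6, 11, 13, 16 and 17, held 724 tested genes (5.63%) and 524 of the calls (13.5%). The 4 lower ones held 455 genes called lower, 22.6% of all genes called lower. Outside the stretches 3353 of 12140 genes were called (27.6%), 1799 higher and 1554 lower. Counts of transcripts show shifts of level along a chromosome and not the number of DNA copies, which was not measured.

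**Figure D1:**
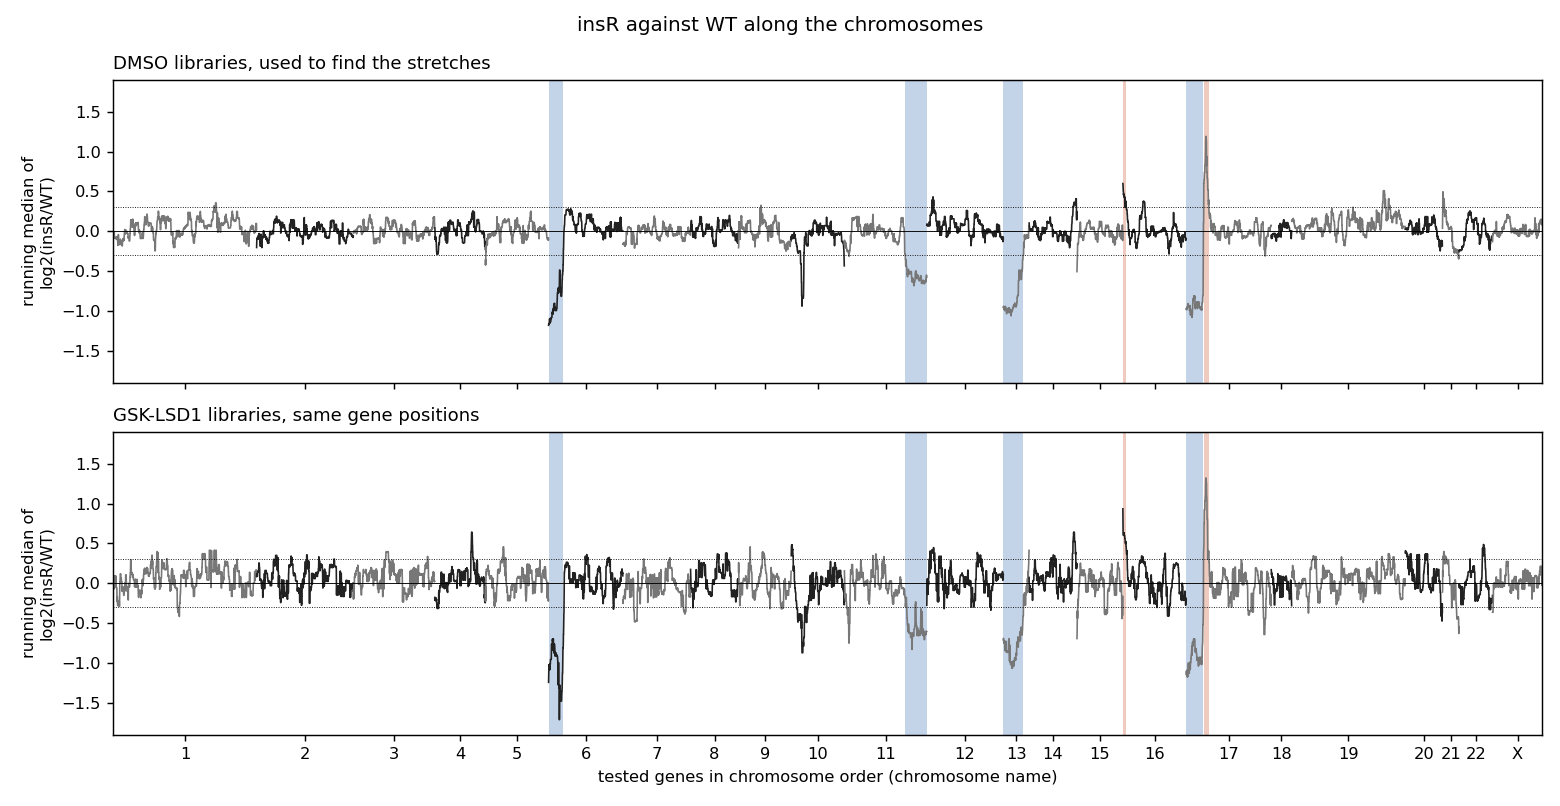
Running median of log2(insR/WT) over 31 neighbouring tested genes in chromosome order, in the DMSO libraries (top) and the GSK-LSD1 libraries (bottom). Blue shading marks the 4 stretches lower in insR and orange the 2 higher, all picked on the DMSO log2 fold changes of the fit over 12 libraries, and dotted lines mark 0.3 and -0.3. The troughs on chromosomes 6, 11, 13 and 17 and the peak on chromosome 17 appear in both panels.

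The lower stretch of chromosome 17 ran from RPH3AL, the first tested gene of the chromosome, to ARHGAP44. Of its 150 genes 144 had a lower value in insR and 120 (80%) were called lower, with a median log2 fold change of -0.94 (ratio 0.52). POLR2A, the largest subunit of RNA polymerase II, was at 444, 451 and 465 CPM in the WT libraries and 248, 249 and 273 CPM in the insR libraries (log2 fold change -0.82, SE 0.08, edgeR adjusted p = 8.54e-09). The groups did not overlap. YWHAE, a phosphoserine-binding adaptor, fell from 487 ± 13 to 223 ± 4.11 CPM (SD, n = 3), and the ribosomal protein gene RPL26 from 558 ± 46.5 to 319 ± 27.2. Against this stretch 2 genes were called higher, among them NTN1, which encodes the guidance cue netrin, at 10.7, 10.3 and 12 CPM in the WT libraries and 24.7, 26.4 and 34.1 in the insR libraries.

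Further along the same chromosome, from TVP23C to EPN2, the difference turned to higher in insR. This stretch held 45 genes with a median log2 fold change of 0.89 (ratio 1.85), 34 of them called higher. The 31 tested genes before it had a median of -0.90 and the 31 after it 0.17. TTC19, a mitochondrial respiratory chain protein, was at 272, 262 and 243 CPM in the WT libraries and 631, 584 and 568 in the insR libraries (log2 fold change 1.20, SE 0.08, edgeR adjusted p = 2.41e-11), with no overlap. The ubiquitin gene UBB rose from 1428 ± 199.9 to 2173 ± 136 CPM (SD, n = 3) and the nuclear receptor corepressor NCOR1 from 227 ± 10.5 to 419 ± 6.89. SREBF1, a regulator of sterol and fatty acid genes that was singled out after its value was seen, rose from 46.9 ± 9.62 to 108 ± 10.2 CPM.

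The stretch on chromosome 13 took in 178 of the 227 tested genes of the chromosome (78.4%), from MPHOSPH8 to RAP2A. The median log2 fold change was -0.87 (ratio 0.548), with 131 genes called lower and 5 higher. HMGB1, an abundant chromatin protein, was at 551, 562 and 578 CPM in the WT libraries and 260.1, 261 and 288 in the insR libraries. The groups did not overlap, and HMGB1 lay within 1 log2 unit of its neighbours (log2 fold change -1.06, SE 0.08, edgeR adjusted p = 7.15e-11). POMP, which helps assemble the proteasome, fell from 648 ± 58.7 to 299 ± 12.3 CPM (SD, n = 3), and the chaperone gene HSPH1 from 435 ± 17.5 to 192 ± 12.2. The cell cycle inhibitor RB1, singled out after its value was seen, was at 38.8, 40.3 and 36.3 CPM in the WT libraries and 18.3, 18.5 and 19.9 in the insR libraries. Against the stretch, the protocadherin gene PCDH17 rose from 12.5 ± 1.84 to 32.9 ± 4.52 CPM.

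On chromosome 6 the stretch went from DUSP22 to HLA-F and held 130 genes, 88 called lower and 4 higher, with a median log2 fold change of -0.97 (ratio 0.51). SOX4, a transcription factor of progenitor cells, fell from 1634 ± 80.8 to 823 ± 91.2 CPM (SD, n = 3). DEK, a chromatin protein, fell from 861 ± 34.8 to 446 ± 13.4 CPM, and JARID2, a subunit of a Polycomb complex, from 480.2 ± 41.1 to 256 ± 12.4. KDM1B, the closest relative of LSD1 and also a histone demethylase, lay here and fell from 39.6 ± 4.15 to 13.6 ± 0.674 CPM. ID4, an inhibitor of helix-loop-helix factors, went against its neighbours, at 15.8, 11.5 and 7.68 CPM in the WT libraries and 90.2, 98.5 and 82.1 in the insR libraries (log2 fold change 2.95, SE 0.18, edgeR adjusted p = 4.45e-10).

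Chromosome 11 had the smallest shift of the 4 lower stretches, with a median log2 fold change of -0.58 (ratio 0.669) over 189 genes from AP001825.1 to ACAD8. In it 116 genes were called lower and 6 higher. ATP5MG, a subunit of ATP synthase, fell from 1696 ± 159 to 1102 ± 81.3 CPM (SD, n = 3) and the histone methyltransferase gene KMT2A from 459 ± 27.5 to 299.6 ± 22.3. The DNA damage kinase gene ATM, singled out after its value was seen, was at 44.8, 37.1 and 43.8 CPM in the WT libraries and 19.7, 20.1 and 18.3 in the insR libraries. The atypical cadherin gene FAT3 rose from 17.2 ± 1.49 to 40.4 ± 3.85 CPM, against its neighbours.

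The shortest stretch, 32 genes from POLR3K to CIAO3 on chromosome 16, had a median log2 fold change of 0.43 (ratio 1.35) and 16 genes called higher. NME4, a mitochondrial nucleoside diphosphate kinase, rose from 355 ± 19.7 to 678 ± 42.9 CPM (SD, n = 3) and POLR3K, a subunit of RNA polymerase III, from 149 ± 1.99 to 229.5 ± 18.3. The alpha-globin genes lie here. HBA1 was at 84.3, 84.8 and 86.6 CPM in the WT libraries and 181, 154 and 148 in the insR libraries, and HBA2 fell from 44.8 ± 3.62 to 33.1 ± 0.618 CPM, but they are almost the same in sequence and the split of reads between them is uncertain. This stretch was found in 13 of 20 alternative searches and was lost with the 6 DMSO libraries alone, without WT replicate 1, with a replicate block, under a stricter filter, among genes of at least 10 CPM, with a window of 51 genes and at a running median of 0.4. The other 5 were found in all 20. With the 6 DMSO libraries alone the search gave 5 stretches with 645 genes.

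Some runs ended close to the limits. A lower run of 30 genes on chromosome 10, from PRTFDC1 to CREM, was 1 gene too short, with a median log2 fold change of -0.88 in DMSO and -0.90 under GSK-LSD1. KIF5B, a motor protein gene in that region, fell from 422 ± 10.2 to 206 ± 6.93 CPM (SD, n = 3), and its neighbours had a median of -0.83. At the end of the chromosome 13 stretch the running median was -0.30 at RAP2A, the last gene inside, and -0.28 at IPO5, the first outside. On chromosome 17 it stepped from -0.80 at ARHGAP44 to -0.29 at ELAC2.

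The stretches were then measured in each library, as the median over their genes of the log2 level minus the WT mean. WT DMSO libraries lay between -0.09 and 0.08 in all 6 stretches. The insR DMSO libraries lay between -0.95 and -0.91 for the lower stretch of chromosome 17, between -0.94 and -0.84 for chromosome 6, between -0.86 and -0.78 for chromosome 13 and between -0.59 and -0.53 for chromosome 11. For the higher stretches they lay between 0.77 and 0.89 on chromosome 17 and between 0.33 and 0.45 on chromosome 16. No insR library overlapped a WT library in any stretch. The stretches were picked on the values of these same DMSO libraries, so nothing further is read from that separation. The genes of each stretch were also split by level into 3 sets. From the set of lowest to that of highest level the median went from -0.79 to -0.90 on chromosome 13, from -0.74 to -0.999 on chromosome 6, and from 0.65 to 1.20 and 0.31 to 0.59 in the higher stretches of chromosomes 17 and 16. It went the other way in the lower stretch of chromosome 17, from -1.13 to -0.90, and on chromosome 11, from -0.63 to -0.58.

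The stretches were chosen by the DMSO log2 fold changes, but the GSK-LSD1 libraries shared the filter, scaling and fit, so they are not a fully separate measurement. In them the median log2 fold change of insR against WT was -0.95 for the lower and 1.03 for the higher stretch of chromosome 17, -0.82 for chromosome 13 and -1.12 for chromosome 6. It was -0.61 for chromosome 11 and 0.59 for chromosome 16, so all 6 kept their sign. The same search was run on the log2 fold changes under GSK-LSD1 from this shared fit. It returned 93.7% of the genes of the chromosome 11 stretch, 99.4% of those of chromosome 13 and every gene of the other 4. It also gave 8 stretches that the DMSO search had not, the longest with 99 genes on chromosome 10, from HSPA14 to SGMS1, around the run named above.

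**Figure D2:**
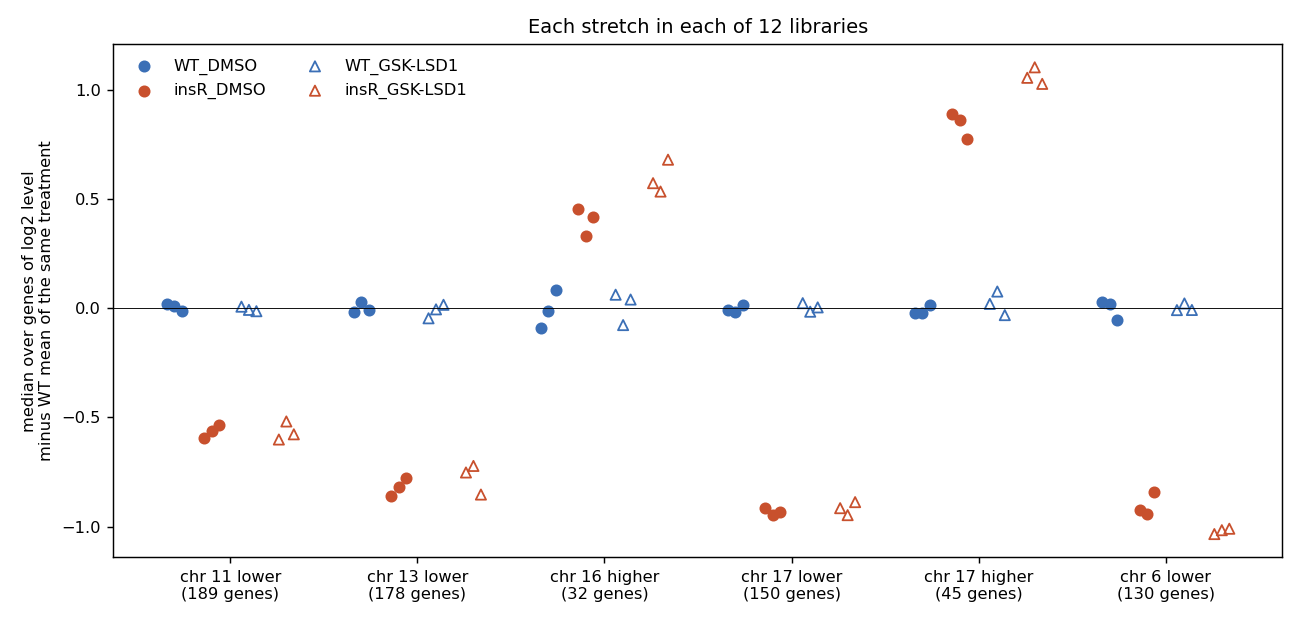
Median over the genes of each stretch of the log2 level minus the WT mean of the same treatment, with 1 point for each of the 12 libraries (blue WT, orange insR, circles DMSO, open triangles GSK-LSD1). WT points lie close to 0, and for the lower stretch of chromosome 17 the insR DMSO points lie between -0.95 and -0.91.

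Single-gene changes were then taken as called genes at least 1 log2 unit away from the median of their 30 neighbours. There were 1145, 548 higher and 597 lower, with a median absolute log2 fold change of 1.80. Their number was 557 under a stricter filter, which tests fewer genes, and 1903 at a distance of 0.58 log2 units. Another 448 calls lay in a stretch, moved with it and stayed within 1 log2 unit of their neighbours (median 0.92). The other 2218 called genes with neighbours changed less, with a median of 0.48. Of the single-gene changes 205 were at least 4-fold higher, 270 at least 4-fold lower, and 74 of the 1145 lay inside a stretch.

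**Figure D3:**
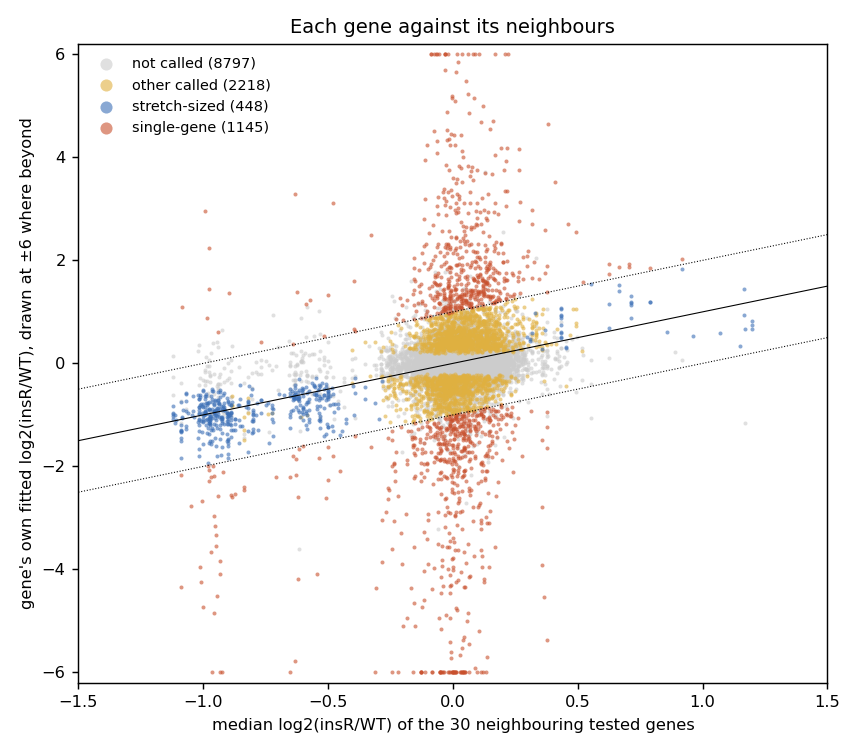
Each tested gene's log2(insR/WT) in DMSO against the median of its 30 neighbours, coloured by class, with values beyond 6 drawn at 6. Stretch-sized changes (448) follow the solid line of equality, and single-gene changes (1145) lie outside the dotted lines 1 log2 unit away from it, most of them where the neighbours are near 0.

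Some genes were present in 1 line and nearly absent from the other. Among coding genes, 30 with at least 5 CPM in WT had at most 3 reads in the 3 insR libraries together, and 16 of them had none. In the other direction 5 genes had at most 3 reads in WT and 2 had none. CBFA2T3 encodes ETO2, a corepressor in complexes of blood stem cells and red cell and platelet precursors. It was at 58.3, 46.4 and 50.9 CPM in the WT libraries and had no read in any insR library, at least 369.5-fold lower when 3 reads over the group are taken as the floor. RUNX1T1, a gene of the same ETO family, was higher in insR, at 52.7, 57.3 and 63.6 CPM in the WT libraries and 157, 154 and 148 in the insR libraries (log2 fold change 1.40, SE 0.08, edgeR adjusted p = 2.52e-12).

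The sequence upstream of 2 genes nearly absent from insR and 1 absent from WT is shown for their CG content. Each is the 250 bases before 1 annotated start of the gene, which may have others further up or down. The sequences are from RefSeq (GRCh38.p14), read on the strand of the gene. The capitals mark CG, the dinucleotide at which DNA is methylated.
CBFA2T3, chr16:88941351-88941600, minus strand, 36 CG: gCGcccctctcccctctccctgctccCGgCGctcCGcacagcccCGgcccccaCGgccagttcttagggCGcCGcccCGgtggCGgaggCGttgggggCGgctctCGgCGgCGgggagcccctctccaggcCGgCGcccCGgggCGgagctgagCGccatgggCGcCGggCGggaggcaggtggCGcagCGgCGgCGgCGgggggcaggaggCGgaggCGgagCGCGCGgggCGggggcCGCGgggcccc
NPW, chr16:2019535-2019784, plus strand, 12 CG: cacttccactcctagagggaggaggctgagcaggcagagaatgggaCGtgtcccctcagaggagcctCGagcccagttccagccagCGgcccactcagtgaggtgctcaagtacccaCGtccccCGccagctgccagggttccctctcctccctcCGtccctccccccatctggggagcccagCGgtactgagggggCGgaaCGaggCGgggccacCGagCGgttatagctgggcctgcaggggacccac
CNTNAP4, chr16:76277151-76277400, plus strand, 13 CG: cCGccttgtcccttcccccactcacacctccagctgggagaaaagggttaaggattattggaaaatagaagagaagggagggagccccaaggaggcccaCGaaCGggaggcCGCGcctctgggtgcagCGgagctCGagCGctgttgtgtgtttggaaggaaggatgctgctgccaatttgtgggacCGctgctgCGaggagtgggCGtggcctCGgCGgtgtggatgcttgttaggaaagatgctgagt
RefSeq upstream sequence was matched for 9258 of 11297 tested coding genes, with a median of 20.5 CG, and 87% held at least 10. For the 30 genes nearly absent from insR, 19 were matched, with a median of 20 CG, and 78.9% held at least 10. Coding single-gene changes of at least 4-fold had a median of 10 CG where higher in insR (132 of 175 matched) and 19 where lower (179 of 246 matched). At least 10 CG were held by 50% of the higher and 68.7% of the lower. Tested coding genes under 10 CPM in WT had a median of 18.5, and 78% held at least 10. These values describe the reference, and DNA methylation was not measured.

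PARD3, a scaffold of cell polarity, was at 24.6, 25.5 and 25.2 CPM in the WT libraries and at 0 in all 3 insR libraries, at least 181-fold lower, while its neighbours on chromosome 10 had a median log2 fold change of -0.65. PTPRCAP, a partner of the phosphatase CD45, was at 16, 15.1 and 13.8 CPM in the WT libraries and also had no read in insR (at least 108-fold lower). The neuropeptide gene NPW was at least 104-fold lower, the exchange factor gene RAPGEF5 at least 81.3-fold and the connexin gene GJA4 at least 77.1-fold. MGMT, the enzyme that repairs alkylated guanine, was singled out after its value was seen: it was at 7.55, 4.55 and 5.89 CPM in the WT libraries and had no read in insR.

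Genes with 1 to 3 reads in insR are given by the ratio of WT to insR with its 95% counting interval. PIEZO2, a mechanically gated ion channel, was at 42, 52.2 and 55.4 CPM in the WT libraries, with a ratio of 1081 (194 to 42740). DLK1, a membrane protein related to Notch ligands, was at 37.9, 38.2 and 36.4 CPM in the WT libraries and 0, 0.165 and 0.176 in the insR libraries, a ratio of 406 (112 to 3357). The neuropeptide gene GAL had a ratio of 472 (130.4 to 3908) and NPR3, a natriuretic peptide receptor, 170 (57.8 to 827). Developmental transcription factors were among these genes: IRX1 had a ratio of 290.1 (51.6 to 11500), FOXL2 131 (35.8 to 1085) and HOXD13 112 (30.5 to 928). ALOX5AP, needed for leukotriene synthesis, lies in the chromosome 13 stretch but fell far more than its neighbours, from 19.4 ± 2.34 to 0.181 ± 0.0198 CPM (SD, n = 3), against a neighbour median of -0.96 on the log2 scale.

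Among the largest increases was CNTNAP4. It encodes a neuronal adhesion protein and had no read in WT and 10.6, 14.3 and 11.1 CPM in the insR libraries, at least 73.5-fold higher. CALB2, the calcium-binding protein calretinin, was at 0, 0.536 and 1.43 CPM in the WT libraries and 122, 112 and 123 in the insR libraries (log2 fold change 7.50, SE 0.27, edgeR adjusted p = 4.28e-13). SLC7A8, a neutral amino acid transporter, was at 8.78, 8.98 and 8.39 CPM in the WT libraries and 351, 328 and 303 in the insR libraries (log2 fold change 5.22, SE 0.11, edgeR adjusted p = 1.1e-20). All insR libraries lay above all WT libraries for these 3 genes, as the rule by which they were named required. CDH11, a mesenchymal cadherin, rose from 1.38 ± 0.289 to 72.8 ± 3.86 CPM (SD, n = 3). MARCHF1, a ubiquitin ligase that acts on MHC class II, had a ratio of insR to WT of 263 (46.9 to 10430), and the peptidase gene TRHDE 247 (43.9 to 9779).

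MAGEC1 and MAGEC2, antigens normally made in testis, are neighbours on chromosome X and were higher by 5.65 and 5.16 on the log2 scale. Of 39 cancer-testis antigen genes 34 were not tested, and 17 had no read in the 6 libraries. Of the 5 tested 3 were higher and 2 lower, against 14.5% higher and 15.6% lower among all genes tested. A member nearly absent from 1 line can pass the count filter through the other line alone, so nothing is read from this share. MAGEA1, of a related family, fell from 4.8 ± 2.02 to 0.684 ± 0.781 CPM (SD, n = 3). OTP and EMX2, transcription factors of brain development, were higher by 5.14 and 4.89 on the log2 scale, and the neural adhesion gene NCAM2 by 4.70. ALDH1A2, which makes retinoic acid, rose from 1.74 ± 0.616 to 33.9 ± 3.21 CPM (SD, n = 3). The amino acid transporter gene SLC6A15 and the dystrophin gene DMD were higher by 4.18 and 3.85 on the log2 scale.

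**Figure D4:**
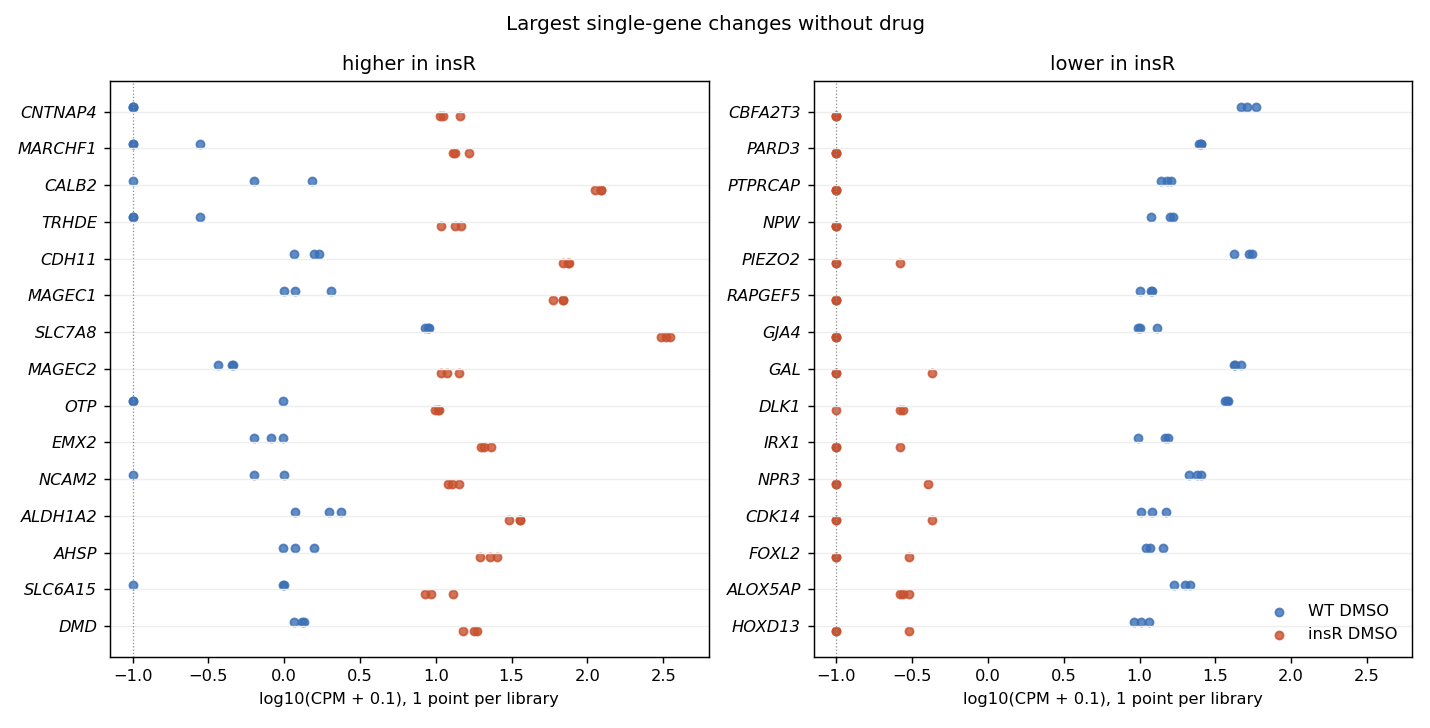
Level of the 15 largest single-gene increases (left) and decreases (right) in each of the 6 DMSO libraries, as log10(CPM + 0.1), WT in blue and insR in orange. The dotted line at -1 is a library with no read: for CBFA2T3 and PARD3 all 3 insR libraries sit on it.

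Abundant genes changed as well. S100A4, a calcium-binding protein, fell from 2215 ± 212 to 1079 ± 61.5 CPM (SD, n = 3) and the DNA sensor gene IFI16 from 383 ± 27.5 to 134 ± 0.768. Of the 10 most abundant genes at least 2-fold lower, 6 moved with a stretch. Of all 778 genes called at least 2-fold lower, the lower stretches of chromosomes 11, 13, 17 and 6 held 28, 61, 62 and 59. Among abundant genes that rose, the tubulin gene TUBA4A went from 596 ± 56.5 to 1202 ± 78.7 CPM, glutamine synthetase (GLUL) from 242 ± 22.1 to 531 ± 61 and the kinase anchor AKAP12 from 42.3 ± 3.83 to 480.2 ± 80.4. MS4A3, a marker of granulocyte precursors, rose from 178 ± 40.4 to 490.4 ± 48.7 CPM.

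Single-gene changes also lay side by side in 19 sets of at least 3 neighbours that changed in 1 direction, too short to be stretches. On chromosome 1 the immune receptor genes SLAMF7 and CD244 and the lectin genes ITLN1 and ITLN2 were higher, with a median log2 fold change of 3.26. On chromosome 6 the set from HLA-DRA to HLA-DQB1 was higher (1.61), and on chromosome 19 HAS1, FPR1 and FPR3 (3.14). The hormone gene TRH and the collagen genes COL6A5 and COL6A6 on chromosome 3 were lower (median -4.01), as were GPR157, H6PD and SPSB1 on chromosome 1 (-3.04).

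Gene lists are given by their counts of called members, against 14.5% higher and 15.6% lower among all genes tested and a median log2 fold change of 0.01. A gene nearly absent from 1 line can pass the count filter through the other line alone. Where many members of a list were not tested, its share of called genes can be raised by this. Of 41 tested erythroid genes 23 were higher and 6 lower, with a median log2 fold change of 0.48. AHSP, the chaperone of alpha-globin, was at 0.878, 1.47 and 1.07 CPM in the WT libraries and 22.8, 25.2 and 19.3 in the insR libraries. EPB42, of the red cell membrane skeleton, rose from 9.1 ± 1.99 to 58.6 ± 3.73 CPM (SD, n = 3). The fetal globin genes HBG1 and HBG2 rose from 1119 ± 124 to 2536 ± 152 and from 746 ± 55.6 to 2193 ± 311 CPM, with an uncertain split between these near-identical copies. BCL11A, a repressor of fetal globin, fell from 49.1 ± 4.1 to 27.4 ± 1.56 CPM. Of 19 tested megakaryocyte and platelet genes 3 were higher and 5 lower, with a median log2 fold change of -0.05. All 30 listed genes summed to 1512 to 1615 CPM in the WT libraries and 1564 to 1625 in the insR libraries. Among the 5 called lower, LTBP1, RAB27B and GP5 were lower by 1.92, 2.33 and 2.12 on the log2 scale.

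Of 14 tested MHC class II genes, which serve antigen presentation, 9 were higher and 1 lower, with a median log2 fold change of 1.35, or 1.06 with 1 gene that had no read in a group set to its bound. HLA-DRA was at 23.2, 22.6 and 21.4 CPM in the WT libraries and 70.8, 74.1 and 69.4 in the insR libraries, and the invariant chain gene CD74 rose from 26.9 ± 2.75 to 64.3 ± 5.08 CPM (SD, n = 3). The member called lower, RFXAP, part of the factor that binds class II promoters, lies in the chromosome 13 stretch. Of 18 tested class I and peptide loading genes 7 were higher and 2 lower, HLA-E among the higher. Reads of HLA genes can be shared between similar members, which makes single values uncertain.

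JAK2 and STAT5 carry signals from cytokine receptors. Of 30 tested genes of that list 10 were higher and 1 lower, with a median log2 fold change of 0.23. The receptor subunit genes IL3RA and IL2RA rose from 2.81 ± 0.657 to 23 ± 3.18 CPM (SD, n = 3) and from 1.61 ± 0.776 to 14.3 ± 2.33 CPM. CBL, a ubiquitin ligase that turns off receptors, was the gene called lower, from 109.7 ± 11.7 to 64.8 ± 2.68 CPM, and lies in the chromosome 11 stretch. PTPN1, a phosphatase of this pathway, rose from 1195 ± 60 to 1754 ± 63.9 CPM.

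Cholesterol synthesis went mostly the other way, with 14 of 24 tested genes lower and 2 higher and a median log2 fold change of -0.39. HMGCS1, an early enzyme of the pathway, was at 255, 257 and 277 CPM in the WT libraries and 115, 107 and 115 in the insR libraries. LSS, which forms the sterol rings, was lower by 1.44 on the log2 scale. SC5D, a late enzyme lower by 1.19, lies in the chromosome 11 stretch, and SREBF1, 1 of the 2 called higher, in the higher stretch of chromosome 17. Among 21 tested amino acid and nutrient transporters 10 were higher and 6 lower: the glucose transporter SLC2A1 rose from 84 ± 10.4 to 191 ± 14.8 CPM (SD, n = 3), and SLC43A2, in the lower stretch of chromosome 17, fell from 24.1 ± 2.07 to 7 ± 1.52 CPM.

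Of 24 tested genes of LSD1 complexes 3 were higher and 5 lower. RCOR1, the CoREST scaffold that holds LSD1, rose from 255 ± 23.4 to 415 ± 42.8 CPM (SD, n = 3), and the partner gene ZMYM2, in the chromosome 13 stretch, fell from 65.1 ± 2.88 to 30.3 ± 3.75. Of 15 tested repressors that recruit LSD1 and ETO corepressors 5 were higher and 5 lower, and SNAI1, which can bring LSD1 to genes, rose from 2.51 ± 0.634 to 7.99 ± 3.02 CPM. Other histone lysine demethylases and methyltransferases had 9 lower and 1 higher of 35, and 5 of the tested genes lie in stretches. The methyltransferase gene NSD1, outside them, fell from 71.3 ± 4.42 to 30.1 ± 2.49 CPM. Of 14 tested DNA methylation enzymes and IDH genes 6 were lower and 0 higher, with IDH2, a mitochondrial isocitrate dehydrogenase, going from 349.8 ± 27.3 to 205 ± 6.32 CPM.

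Of 14 tested stem and progenitor genes 6 were lower and 3 higher. ANGPT1, the angiopoietin ligand, was at 125, 124 and 125 CPM in the WT libraries and 14.8, 13.5 and 15.1 in the insR libraries (log2 fold change -3.10, SE 0.11, edgeR adjusted p = 5.77e-17), and the homeobox gene HOXA9 fell from 29.6 ± 6.32 to 11.5 ± 1.24 CPM (SD, n = 3). Haematopoietic transcription factors had 6 higher and 12 lower of 41. IKZF1, a lymphoid and progenitor regulator, was lower by 0.86 on the log2 scale, and CEBPE, of granulocyte maturation, had no read in WT and 3.86, 2.14 and 2.29 CPM in insR. Homeobox and neural developmental factors had 3 higher and 10 lower of 30 tested, and neuronal and synaptic genes 7 higher and 1 lower of 13. Cadherins and protocadherins had 8 higher and 3 lower of 16, CDH5 of endothelial cells among the higher. In the homeobox, neuronal and cadherin lists 41, 26 and 19 members were not tested.

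Of 32 mitosis genes 9 were higher and 2 lower, none by 2-fold, and AURKB, a mitotic kinase in the lower stretch of chromosome 17, fell from 192 ± 30.9 to 114 ± 8.16 CPM (SD, n = 3). Of 37 replication genes 7 were higher, and the 1 called lower, the clamp loader gene RFC3 of the chromosome 13 stretch, fell from 224 ± 42.5 to 93.8 ± 10.8 CPM. Ribosome biogenesis genes had 3 higher and 4 lower of 32. Of 25 tested p53 targets 7 were higher and 4 lower: the cell cycle inhibitor CDKN1A rose from 6.18 ± 1.74 to 27.4 ± 1.41 CPM and the kinase gene PLK2 from 3.74 ± 0.597 to 53.5 ± 6.78. Glycolysis and hypoxia targets had 6 higher and 6 lower of 29, and VEGFA, the endothelial growth factor, rose from 59.9 ± 7.77 to 161 ± 14.2 CPM. Apoptosis genes had 8 higher and 4 lower of 25, and drug efflux and detoxification genes 7 and 7 of 27.

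**Figure D5:**
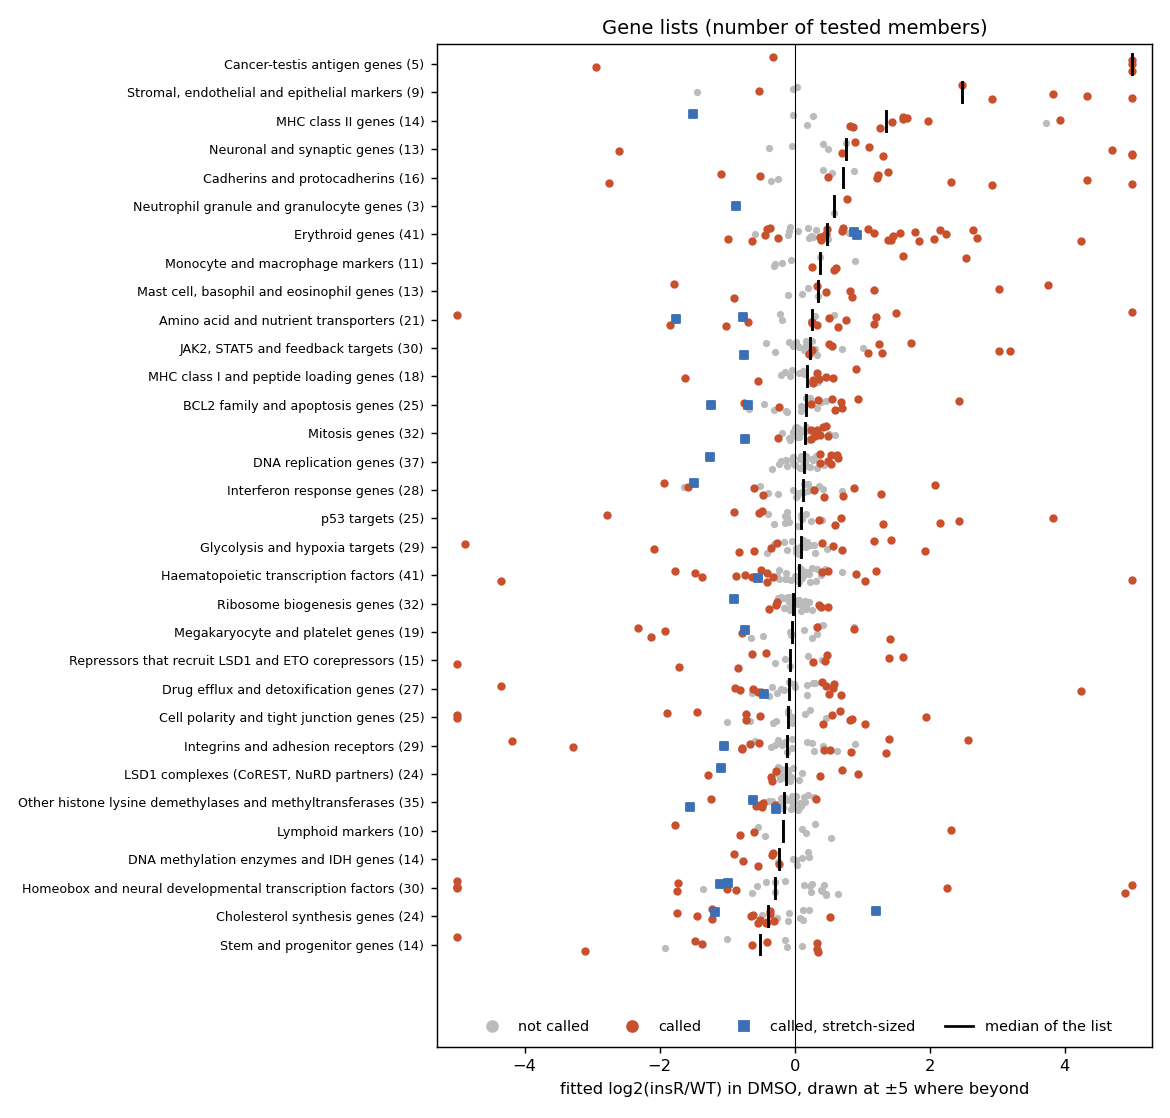
Log2(insR/WT) in DMSO of each tested member of 32 gene lists, ordered by median (black bar), with the number of tested members in brackets and values beyond 5 drawn at 5. Erythroid genes lie mostly to the right of 0 (23 higher, 6 lower) and cholesterol synthesis genes mostly to the left (14 lower, 2 higher).

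Markers of other cell types were summed in each library. The 29 monocyte and macrophage markers summed to 431 to 486 CPM in WT and 593 to 629.8 CPM in insR, 5 of 11 tested were higher, and 8, CSF1R, CD163 and S100A8 among them, had no read in the 6 libraries. AIF1, a calcium-binding protein of macrophages, gave the largest share and rose from 251 ± 18.7 to 376 ± 15.5 CPM (SD, n = 3). The 20 granulocyte markers summed to 28.6 to 29.3 CPM in WT and 24.5 to 27.4 in insR, with 8 at 0, and of 3 tested 1 was higher and 1 lower. The 26 lymphoid markers summed to 82.1 to 88.8 CPM and 82.2 to 93.2 CPM, with CD3E and MS4A1 among the 6 at 0, and of 10 tested 1 was higher and 3 lower. The 21 mast cell, basophil and eosinophil genes summed to 1757 to 1883 CPM in WT and 2360 to 2529 in insR, with 7 of 13 higher and 2 lower. In the monocyte, granulocyte, lymphoid and mast cell lists 18, 17, 16 and 8 members were not tested. The limit given above for lists with many untested members holds for their shares of called genes. The 19 stromal, endothelial and epithelial markers summed to 52.9 to 58.5 CPM in WT and 138 to 147 in insR. DCN, PECAM1, TEK and KRT19 were at 0. Of 9 tested 5 were higher and 1 lower, with a median log2 fold change of 2.48. The other 10 were not tested. Members nearly absent from WT could pass the count filter through insR alone, so nothing is read from this share or median. CDH11 gave most of the difference in the summed level, and the endothelial cadherin gene CDH5 was higher by 4.33 on the log2 scale. The part of such cells in the results was not tested.

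Whether the difference between the lines changed with the drug was tested for the 30 largest single-gene changes. A change was called for 4 of 30 (2 without insR replicate 1) and for 25.1% of all genes tested. The 30 were chosen on the same DMSO values, and many have nearly no reads in 1 line under both treatments, so nothing is read from these shares. All 30 had the same direction under GSK-LSD1 as in DMSO. CBFA2T3 was at 43.8 CPM in WT and had no read in insR under the drug, and the mean of CALB2 was 1.13 CPM in WT libraries and 139 CPM in insR libraries.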

How the data were processed

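Polyadenylated RNA of all 12 samples was turned into QuantSeq 3′ libraries, per the labels' protocols, so reads gather at transcript ends. The deposited files hold raw counts of reads per gene, without normalization. The submitters' processing notes name bcl2fastq 2.2, STAR 2.6.0c, HTSeq 0.9.1, DESeq2 and hg19. Which annotation release and strand setting were used is not given in the sources used here. Genes that overlap, antisense ones included, are therefore uncertain. A normalized table of the whole series was not used. Entries that name no gene (65.7% to 69.1% of a table's total) were left out.

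Genes that passed filterByExpr were fitted over all 12 libraries with 4 group means, TMM scaling and edgeR 4.0.16 in R 4.3.3 (quasi-likelihood test, robust option). The p-values were adjusted by Benjamini-Hochberg over 12864 genes. Members, lists and rules were chosen with earlier results of these data known. Gene order and chromosomes came from GENCODE 29, matched by gene identifier for 12640 of the tested genes. Its build is not the authors' hg19, and no coordinates were carried across. A stretch is a run of at least 31 tested genes whose running median over 31 genes passed 0.3, with runs up to 10 genes apart joined.

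The text names KDM1A; per direction the 15 largest single-gene changes and the 10 most abundant genes changed at least 2-fold (coding, 10 CPM or more in the higher group, libraries not overlapping); per stretch the 4 most abundant called genes and up to 2 against it; and per list up to 4 members of lowest p. Genes with no read in a group are set against 3 counts over that group. This floor and the 95% intervals cover counting error only. Stretch values per library used a pseudocount of 0.5 CPM.

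Alternatives were DESeq2 1.42.0, limma-voom (limma 3.58.1), other scalings, filters, windows and thresholds, the 6 DMSO libraries alone, a replicate block, and each DMSO library left out. Scripts were tested on simulated data. A few genes that the naming rule picks are not reported here. Figures were drawn with Python 3.11.15 and matplotlib 3.10.9.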

Additional observations from a re-analysis of the deposited data

Results flagged for a closer look

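For 4 of the 30 largest single-gene changes the difference between insR and WT was not the same with GSK-LSD1 as without it, by an interaction term in edgeR adjusted over all 12864 genes. Values are the log2 difference under GSK-LSD1 minus that in DMSO. For the transporter gene SLC7A8 it was -2.30 (adjusted p = 7.8e-11), with mean levels of 8.72 CPM in WT and 327 in insR without drug and 31.7 and 238 with it. The globin chaperone gene AHSP had 2.97 (adjusted p = 0.00625), with 1.14 CPM in WT and 22.4 in insR without drug and 0.126 and 17.6 with it. ALDH1A2, of retinoic acid synthesis, had 1.28 (adjusted p = 0.0393) and the testis antigen gene MAGEC2 -1.63 (adjusted p = 0.0416). In 13 alternatives SLC7A8 had adjusted p-values from 8.82e-42 to 9.38e-08 and AHSP from 0.00244 to 0.0298, and no call of these was lost. That of ALDH1A2 ranged from 0.0177 to 0.129, and its call was lost with limma-voom and without WT replicate 1, WT replicate 2 or insR replicate 1. That of MAGEC2 ranged from 0.0322 to 0.12, and its call was lost in 9 of them, among them DESeq2, limma-voom, and 5 of the 6 fits that leave out a DMSO library.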

How the results depend on the processing

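Calls numbered 3174 to 3925 under other scalings, filters and tools, 2678 at an adjusted p under 0.01 and 3210 to 3493 with 1 DMSO library left out, against 3877. Under the stricter filter, which leaves out genes of low counts, 3174 genes were called. Of these, 737 changed at least 2-fold, against 1373, and 557 were single-gene changes, against 1145. Single-gene changes numbered 1903 at a distance of 0.58 from the neighbours. The search gave 13 stretches with 1455 genes with no filter beyond 1 count, 15 with 1220 genes at a running median of 0.2, 14 with 1088 genes when picked in the GSK-LSD1 libraries, 443 genes among those of at least 10 CPM, and 7 to 9 stretches with a library left out. The median of the lower stretch of chromosome 17 was -0.91 under the stricter filter and among genes of at least 10 CPM, and -0.98 to -0.92 with a library left out, and that of the higher stretch was 1.06 under both filters. In the GSK-LSD1 libraries the chromosome 6 stretch was at -1.10 with no filter beyond 1 count, -1.004 under the stricter filter and -1.17 under upper-quartile scaling. That scaling gave -0.66 for chromosome 11 and -0.99 and 0.98 for the lower and higher stretch of chromosome 17, and the stricter filter gave 1.12 for the higher one. The largest changes that differed with the drug numbered 2 without insR replicate 1 and up to 4 without another library. Of the values under these settings of all genes that the naming rule picks, 2400 kept direction and call, 29 lost the call and 0 reversed; the 29 belong to 9 genes that the text does not describe. The cause of these shifts was not tested.

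Replicate numbers did not pair the samples: same-numbered libraries of the lines deviated from their group means with correlations of -0.059, 0.07 and -0.049. With the replicate block 3897 genes were called, and 1128 of them were single-gene changes. The search then gave 5 stretches with 689 tested genes, called or not. Genes of a few CPM rest on few reads, and the 3 counts that a value of 0 allows limit their fold changes.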

Other observations

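Single-gene changes inside the lower stretches were 49 lower and 16 higher. JAM3, a junctional adhesion molecule in the chromosome 11 stretch, was at 28.6, 32.6 and 34.3 CPM in the WT libraries and 1.42, 1.81 and 2.11 in the insR libraries, with a neighbour median of -0.62 on the log2 scale. HLA-F, at the end of the chromosome 6 stretch, was lower by 1.63, where the stretch median was -0.97 and the running median at HLA-F -0.42. Of 28 tested interferon response genes 6 were higher and 5 lower: the antiviral enzyme gene RSAD2 rose from 7.42 ± 0.935 to 31.8 ± 2.57 CPM (SD, n = 3), and XAF1, in the lower stretch of chromosome 17, fell from 31.8 ± 1.37 to 11.3 ± 0.802 CPM.

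Shorter runs past the running median of 0.3 lay on chromosomes 1, 12, 14, 16 and 19, with 17 to 30 genes each. All 5 were higher in insR, with medians of 0.33 to 0.52 in DMSO and 0.12 to 0.47 in the GSK-LSD1 libraries.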
